A study of Mus musculus with 6 samples.

Results

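The 10 genes described here encode feedback inhibitors of fibroblast growth factor (FGF) and ERK signaling. They are the Sprouty genes Spry1, Spry2 and Spry4, the Spred genes Spred1, Spred2 and Spred3, the dual-specificity phosphatase genes Dusp4, Dusp5 and Dusp6, and Il17rd. They were chosen by name and make up 10 of the 26264 gene symbols in the count tables. All 10 had reads in each of the 6 libraries, and the smallest count was 33 reads, for Dusp5 in untreated cells at day 3.

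The 6 libraries are bulk RNA sequencing of immortalized mouse brown preadipocytes and of adipocytes made from them. All libraries come from stromal vascular cells of interscapular brown fat of wild-type Bl6N mice, immortalized with the SV40 large T antigen delivered by a retrovirus, a limit of the line as a model of preadipocytes that leave the cell cycle. One set of cells received 5.5 nM FGF8 for 48 h and the other was left untreated. Both were harvested at once (day 0), or on day 3 or day 9 after the pretreatment had ended. The sample titles say D7 for the last harvest, read here as the study's day 9. The study counts 2 days of induction before 7 days on differentiation medium. Induction was with insulin, T3, IBMX, dexamethasone, indomethacin and rosiglitazone. FGF8 was given only before differentiation, so the FGF8 libraries of day 3 and day 9 hold cells with a past exposure. The study's methods call the controls vehicle-treated, and the growth text given with the samples describes primary white cells, against the sample titles. With 1 library per condition and no replicates, a difference between 2 libraries has no test. The intervals given are 95% exact binomial intervals (Clopper-Pearson) for a ratio of counts and cover counting error only.

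FGFs bind receptor tyrosine kinases that signal through the adaptor Frs2, Grb2 and Sos to Ras, Raf, MEK and the kinase ERK. ERK activity in turn induces the transcription of its own inhibitors, a negative feedback that limits how strong and how long the signal is. Sprouty proteins restrain the step from receptor to Ras and Raf, Spred proteins bring the Ras-inactivating protein neurofibromin to the membrane, Dusp proteins remove phosphate from ERK itself, and Il17rd (also called Sef) is a transmembrane protein that dampens FGF receptor signaling. In preadipocytes ERK signaling is known for driving proliferation, and its level and timing bear on adipogenic differentiation.

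The libraries held between 16403254 and 38551551 counts, the fewest in the untreated library of day 0. Brown adipocyte markers, summed over 10 genes, went from 2820 normalized counts (counts divided by the library's size factor) at day 0 to 205897 at day 3 and 479525 at day 9 in untreated cells, and from 4399 to 409249 and 557866 in FGF8 cells. Fabp4 had the largest count of this list, up to 476041 raw counts in a library, and weighs heavily in the sums. The median of the 10 genes was 22.8, 2848 and 11863 on days 0, 3 and 9 in untreated cells. In FGF8 cells it was 92.8, 4913 and 14410. At day 3, 4 of the 10 were at least 2-fold higher with FGF8. Preadipocyte markers, summed over 8 genes, were lower after FGF8 on each day, at 136376, 40826 and 31713 in untreated cells on days 0, 3 and 9 against 39602, 11442 and 7472 in FGF8 cells. Of 6 endothelial markers, Cldn5, Cdh5 and Pecam1 had at most 17 counts in any library, while Kdr was at 1288 normalized counts in untreated and 7.68 in FGF8 cells at day 0, and the list summed to 200.2 to 1630 in untreated and 35.1 to 73.0 in FGF8 libraries. Of 8 macrophage markers, Adgre1 was at 0 in all 6 libraries and Ptprc had at most 1 count, and the list summed to 124.9 to 159.0 normalized counts in untreated and 64.0 to 114.6 in FGF8 libraries. Of 6 muscle markers, Myod1 and Ckm were at 0 in all 6 libraries, while Des had up to 1449 counts. In a bulk library, fewer cells of a type and less RNA per cell cannot be told apart. Whether the lower preadipocyte and endothelial markers, or the higher brown adipocyte markers of day 3, have a part in the differences with FGF8 below was not tested.

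At day 0 most of the inhibitors were higher in FGF8 cells than in untreated cells, by 17.3-fold for Spry4, 15.0-fold for Dusp6 and 10.7-fold for Dusp4, while Il17rd was 3.39-fold lower. Of the 10 genes, 6 exceeded 2-fold in the FGF8 library (Spry4, Dusp6, Dusp4, Spred3, Spred2 and Spred1) and 1 was 2-fold or more lower (Il17rd), where 7.27% and 10.8% of the 12657 genes that averaged 20 or more normalized counts in the pair passed these limits. The median log2 fold change, the difference of log2(normalized count + 1), was 1.25 over the 10 genes and 0.054 over all genes tested. By day 3 none of the 10 was at least 2-fold higher (3.80% of 12892 genes were) and 2 were at least 2-fold lower, Spred3 and Il17rd (12.1% of genes). At day 9 none was 2-fold higher (1.12% of 13070 genes) and 2 were 2-fold lower, Spry1 and Il17rd (8.74% of genes). The median over the 10 genes was 0.22 at day 3 and -0.25 at day 9, beside 0.081 and 0.083 over all genes. In number, 8 of 10 lay above 0 at day 0, 6 at day 3 and 2 at day 9.

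**Figure D1:**
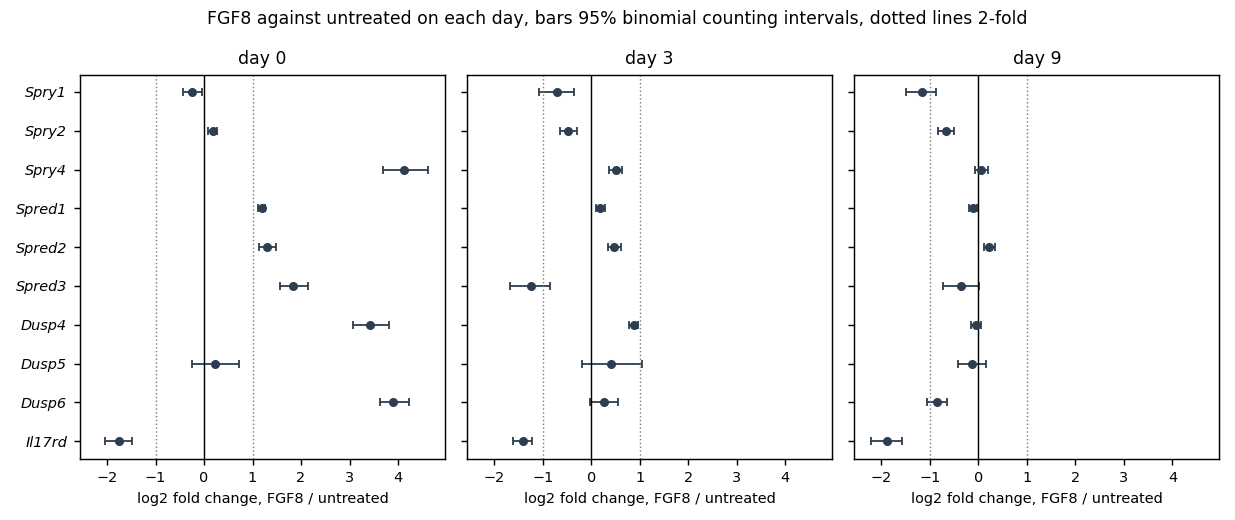
Log2 fold change of FGF8 over untreated cells (x axis) for each of the 10 genes (rows) on day 0, day 3 and day 9. Points are differences between 2 single libraries, bars are 95% binomial counting intervals and dotted lines mark 2-fold. At day 0 the values span -1.76 (Il17rd) to 4.12 (Spry4), and at day 9 they span -1.88 (Il17rd) to 0.23 (Spred2).

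Spry4, an inducible Sprouty that acts downstream of FGF receptors, lies at chr18:38719300-38736025 (minus strand, GRCm39). Its level in untreated cells was 60.2, 840.0 and 657.3 normalized counts on days 0, 3 and 9. In FGF8 cells it was 1060.0, 1192 and 685.3. The untreated library of day 0 stood alone, and the other 5 libraries lay within 657.3 and 1192. At day 0 the FGF8 library was 17.3-fold higher, a log2 fold change of 4.12 (95% interval 3.69 to 4.63), rank 42 from the top of the 12657 genes. This gap was 0.50 (0.37 to 0.64) at day 3 and 0.060 (-0.076 to 0.20) at day 9, where the sign changed with the scaling (-0.0051 to 0.092). Untreated cells held 13.7-fold more at day 3 than at day 0 (log2 3.78, 3.35 to 4.29), and the same untreated library of day 0 enters both comparisons. In FGF8 cells the step from day 0 to day 3 was 0.17 (0.048 to 0.29), or -0.036 when scaled by total counts.

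Spry1 and Spry2, the Sprouty genes with the higher levels per kilobase of exon in untreated preadipocytes, showed another pattern. Spry1 (chr3:37693897-37698755, plus strand) was at 609.6, 160.4 and 225.7 normalized counts in untreated cells on days 0, 3 and 9, and at 515.9, 97.6 and 99.99 in FGF8 cells. Spry2 (chr14:106128766-106136446, minus strand) was at 2139, 593.1 and 590.6 in untreated cells and at 2414.5, 427.5 and 372.3 in FGF8 cells. Both were high in the 2 libraries of day 0 and low in the 4 later ones, with no overlap. The share of all genes that separate the days this way was not counted. At day 0 FGF8 and untreated cells were close, with a log2 fold change of -0.24 (-0.44 to -0.039) for Spry1 and 0.17 (0.076 to 0.27) for Spry2. After differentiation the FGF8 cells held less of both. The difference for Spry1 was -0.71 (-1.08 to -0.36) at day 3 and -1.17 (-1.49 to -0.87) at day 9, a 2.24-fold lower level. For Spry2 it was -0.47 (-0.65 to -0.30) and -0.66 (-0.83 to -0.50).

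Per kilobase of exon, which allows levels of different genes to be compared, the 3 Sprouty genes summed to 552 normalized counts in untreated and 738 in FGF8 cells at day 0. Spry4 made up 1.65% of that sum in untreated preadipocytes and 21.8% after FGF8. On day 3 its share was 46.1% in untreated and 63.6% in FGF8 cells, and on day 9 it was 38.1% and 52.7%, while the sum was at 276 and 284 on day 3 and 262 and 197 on day 9. Spry2 had the largest share in both day 0 libraries, 75.2% and 63.6%. The Sprouty message of differentiated cells was thus smaller and mixed, with Spry4 as its largest part in 3 of the 4 later libraries, all but the untreated library of day 9, where Spry2 held 43.9%.

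**Figure D2:**
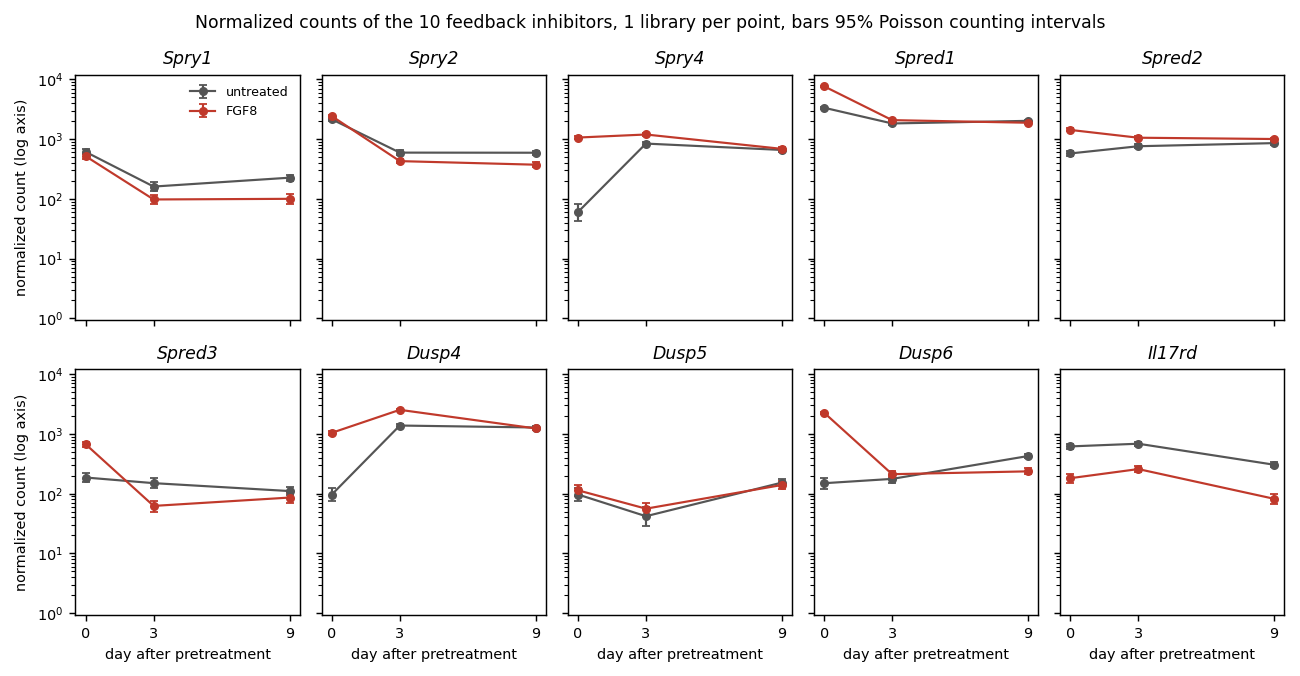
Normalized count (y axis, log scale) of the 10 genes against the day after pretreatment (x axis, days 0, 3 and 9) in untreated (grey) and FGF8 cells (red). Each point is 1 library and bars are 95% Poisson counting intervals. The 2 lines part at day 0 and meet by day 9 for Spry4 and Dusp4, run together for Dusp5, and stay apart on all 3 days for Il17rd.

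The Spred genes were higher after FGF8 at day 0 in all 3 cases. Spred1 (chr2:116951524-117018277, plus strand), mutated in human Legius syndrome, was at 3340.2, 1824 and 2017 normalized counts in untreated cells on days 0, 3 and 9 and at 7622, 2074 and 1875 in FGF8 cells. Its FGF8 library of day 0 lay 2.28-fold above the next one, the untreated library of the same day (log2 fold change 1.19, 1.12 to 1.26). On the later days the 4 libraries lay between 1824 and 2074, with differences of 0.19 (0.094 to 0.28) at day 3 and -0.11 (-0.19 to -0.026) at day 9. Spred2 (chr11:19874355-19974442, plus strand) was at 574.3, 758.5 and 855.3 in untreated and 1421, 1053 and 1002 in FGF8 cells. All 3 FGF8 libraries lay above all 3 untreated ones for Spred2, a split whose share over all genes was not counted. The gap was 1.31 (1.14 to 1.48), 0.47 (0.34 to 0.61) and 0.23 (0.11 to 0.34) on the 3 days.

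Spred3 (chr7:28857984-28869836, minus strand), the Spred with the lowest level per kilobase of exon in every library, was at 186.5, 150.2 and 110.7 normalized counts in untreated cells and at 670.8, 62.5 and 86.2 in FGF8 cells. It was 3.58-fold higher with FGF8 at day 0 (log2 1.84, 1.56 to 2.14) and 2.38-fold lower at day 3 (-1.25, -1.68 to -0.86), and at day 9 the interval included 0 (-0.36, -0.73 to 0.0034). The FGF8 cells therefore held the highest level of the 6 libraries at day 0 and the lowest at day 3. Spred3 shares 202 exon bases with Ggn on the opposite strand, which had 18 to 79 counts per library. The strand setting of the counting is not given in the sources used here. Genes not listed in the counts also share exon bases on the opposite strand with Spry1 (909), Dusp6 (685 and 94), Spry2 (564), Dusp5 (555) and Spred3 (211). Whether reads from the shared bases have a part in the counts of Spred3 or of these other members was not tested. Summed per kilobase, the Spred genes stood at 553 in untreated and 1317 in FGF8 cells at day 0 and between 382 and 449 in the 4 later libraries. Spred1 held the largest share in every library, from 57.6% to 77.8%.

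**Figure D3:**
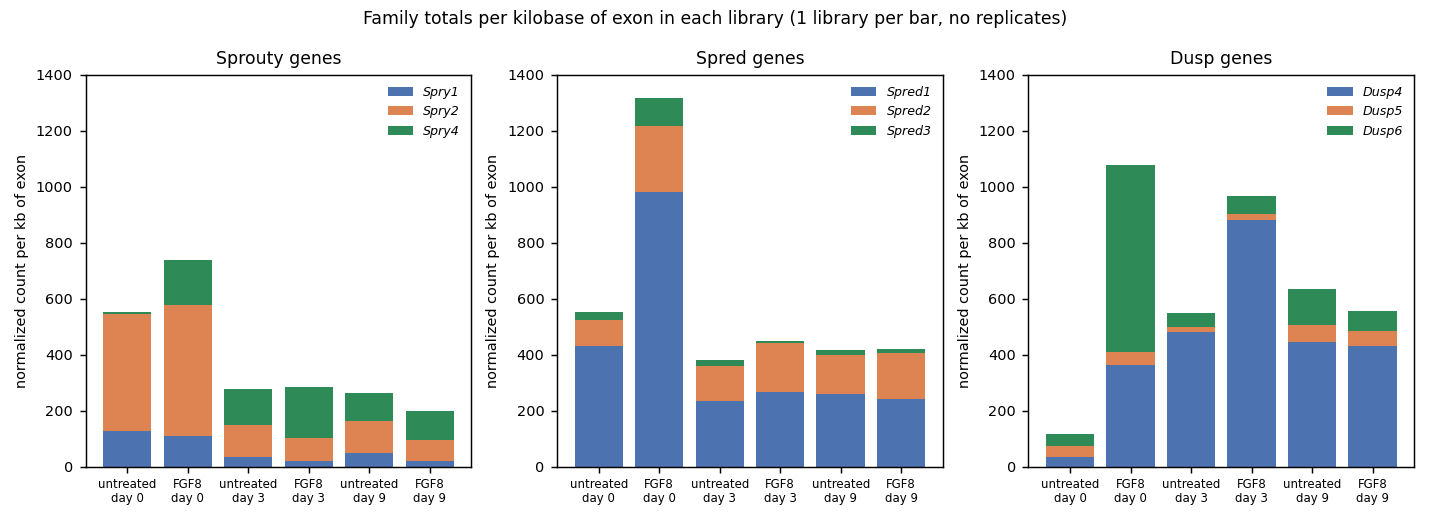
Normalized counts per kilobase of exon (y axis, from 0) of the Sprouty, Spred and Dusp genes, stacked by gene, in each of the 6 libraries (x axis, 1 library per bar, no replicates). The FGF8 library of day 0 has the highest sum in all 3 panels, and for the Dusp genes the sum at day 0 is 117 in untreated and 1076 in FGF8 cells, with Dusp6 as 62.0% of the latter.

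Among the phosphatases, Dusp6 and Dusp4 differed most with FGF8 at day 0, and each followed its own course afterwards. Dusp6 (also MKP-3), the cytoplasmic phosphatase selective for ERK, was at 149.8, 176.9 and 426.6 normalized counts in untreated cells and at 2261, 212.0 and 236.6 in FGF8 cells on days 0, 3 and 9. Its FGF8 library of day 0 stood apart from all others, which lay between 149.8 and 426.6. The difference there was 15.0-fold (log2 3.91, 3.63 to 4.22), rank 53 from the top. At day 3 the interval included 0 (0.26, -0.034 to 0.56), and at day 9 Dusp6 was 1.80-fold lower in the FGF8 cells (-0.85, -1.06 to -0.65).

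Dusp4 (also MKP-2; chr8:35274442-35287048, plus strand), a nuclear phosphatase of ERK and JNK, was at 96.9, 1382 and 1281 normalized counts in untreated and at 1045, 2530.5 and 1235 in FGF8 cells. Only the untreated library of day 0 was low. FGF8 cells were 10.7-fold higher at day 0 (log2 3.42, 3.07 to 3.81), rank 74 from the top, and 1.83-fold higher at day 3 (0.87, 0.77 to 0.97), with an interval that included 0 at day 9 (-0.053, -0.15 to 0.046). Untreated cells held 14.1-fold more at day 3 than at day 0 (log2 3.82, 3.47 to 4.21) and lay above the FGF8 library of day 0 on both later days, whereas for Spry4 they stayed below it. Unlike Spry4, Dusp4 was also higher at day 3 than at day 0 in the FGF8 cells (1.28, 1.17 to 1.39). Across the 6 libraries the log2 levels of Spry4 and Dusp4 had a Pearson r of 0.97, a description over libraries in which the untreated library of day 0 is far from the rest.

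Dusp5, the nuclear phosphatase selective for ERK, was at 96.9, 42.0 and 153.3 normalized counts in untreated and at 113.9, 56.2 and 139.8 in FGF8 cells. Its differences with FGF8 were 0.23 (-0.24 to 0.71), 0.41 (-0.18 to 1.05) and -0.13 (-0.43 to 0.16), and all 3 intervals included 0. With 33 to 216 counts per library a small difference was not detectable at this depth, and at day 0 the interval ended at 0.71, below the values of Dusp4 and Dusp6. The days differed more than the treatments, with the 2 libraries of day 3 lowest and those of day 9 highest. How many of all genes order the days without overlap was not counted. Dusp4 took 28.8% of the Dusp sum per kilobase in untreated cells at day 0 and 87.4% at day 3, Dusp6 took 62.0% in FGF8 cells at day 0 and 6.48% at day 3, and Dusp5 took 33.4% in untreated cells at day 0 and at most 10.1% in the other 5 libraries.

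The 250 bases before the start of the Ensembl canonical transcript (GENCODE M39, GRCm39) were read for all 10 genes and for 21770 genes in all, and searched on both strands for 5 motifs of factors that act downstream of ERK or of cAMP. These were the ETS motifs CCGGAAG (in 6.89% of all promoters) and CAGGAAG (9.87%), the AP-1 motif TGANTCA (6.17%), the CRE motif TGACGTCA (1.69%) and the CArG box bound by SRF (1.40%). Among the 10 genes only Dusp5 held a match, a pair of adjacent CArG boxes that do not overlap and start 38 and 28 bases before the transcript start. The windows of Dusp6, 15.0-fold higher with FGF8, and Dusp5, whose interval included 0, are shown because these phosphatases of ERK differed in their response within one family. The CArG boxes are in capitals. The Dusp6 window (chr10:99098818-99099067, plus strand) lies within the gene (chr10:99086564-99103361), which overlaps noncoding genes on both strands. The Dusp5 window (chr19:53517282-53517531, plus strand) lies just before the gene (chr19:53517532-53530862), which overlaps a noncoding gene on the opposite strand. Whether the windows overlap exons of these noncoding genes was not determined.
Dusp5: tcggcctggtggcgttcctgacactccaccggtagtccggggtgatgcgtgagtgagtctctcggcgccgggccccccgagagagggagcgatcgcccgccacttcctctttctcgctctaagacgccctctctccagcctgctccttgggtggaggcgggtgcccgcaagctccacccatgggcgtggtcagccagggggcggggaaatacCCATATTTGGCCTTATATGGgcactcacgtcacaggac
Dusp6: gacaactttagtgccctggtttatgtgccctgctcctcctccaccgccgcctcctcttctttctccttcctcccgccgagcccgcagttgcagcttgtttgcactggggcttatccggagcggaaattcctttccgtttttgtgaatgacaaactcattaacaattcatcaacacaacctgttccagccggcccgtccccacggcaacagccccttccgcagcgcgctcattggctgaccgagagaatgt

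A match describes the letters and is not a binding site, and no match says only that these letters are not in this window.

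Il17rd was lower in the FGF8 cells on every day, by at least 2.65-fold. Spry1 was also lower on all 3 days, by 1.18-fold, 1.64-fold and 2.24-fold. Il17rd lies at chr14:26760889-26829243 (plus strand). Its level on days 0, 3 and 9 was 618.4, 686.0 and 305.2 normalized counts in untreated cells. In FGF8 cells it was 181.8, 258.3 and 82.1. No FGF8 library reached the lowest untreated library, and the share of all genes that separate this way was not counted. The difference was 3.39-fold at day 0 (log2 -1.76, -2.05 to -1.49), 2.65-fold at day 3 (-1.41, -1.60 to -1.22) and 3.68-fold at day 9 (-1.88, -2.22 to -1.58). Among genes of each day it ranked 660 of 12657, 868 of 12892 and 409 of 13070 from the lowest. Both groups also held less at day 9 than at day 3, by 2.24-fold in untreated and 3.12-fold in FGF8 cells. The summed preadipocyte markers were lower in the FGF8 library on the same 3 days (values above), and whether they have a part in this difference was not tested.

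Whether FGF8 had a common effect on all 3 days was tested in edgeR by quasi-likelihood, with the days in the place of replicates, so that unequal responses on different days add to the error. Of the 10 genes only Il17rd passed, lower in 3 of 3 days (log2 fold change -1.71, SE 0.189, adjusted p = 0.0451 from edgeR with Benjamini-Hochberg adjustment over 14569 genes), where 1.25% of all genes were called lower and 0.0206% higher. Over the alternative fits its adjusted p ran from 5.14e-09 (DESeq2) to 1.00 (no day block), and the call was lost without day 3 (0.215) and without day 9 (0.287). Dusp4 (1.26, SE 0.69), Spry4 (1.30, SE 0.86) and Dusp6 (0.92, SE 1.03) did not pass this test, with adjusted p-values of 0.327, 0.403 and 0.622 from edgeR with Benjamini-Hochberg adjustment. Their differences at day 0 were the largest and those at days 3 and 9 were smaller, and this spread between days enters the error. Without day 0, Spry1 was also called, lower on both remaining days (-0.98, adjusted p = 0.0490 from edgeR, Benjamini-Hochberg, and 0.0490 to 1.00 over the fits). In that fit 1661 of 14367 genes were called lower and 569 higher.

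The day of differentiation gave another pattern. From day 0 to day 3, untreated cells had 2 inhibitors at least 2-fold higher (Spry4 and Dusp4) and 3 lower (Spry1, Spry2 and Dusp5), where 19.5% and 15.5% of 13087 genes passed these limits. FGF8 cells had 1 higher (Dusp4) and 6 lower (Dusp6, Spred3, Spry2, Spry1, Spred1 and Dusp5), where 24.1% and 22.0% of 13013 genes did. The largest of these differences in the FGF8 cells were 10.6-fold for Dusp6 (log2 -3.41, -3.60 to -3.24) and 10.6-fold for Spred3 (-3.40, -3.77 to -3.10), both of which were higher with FGF8 at day 0. In untreated cells Dusp6 and Spred3 had intervals that included 0, at 0.24 (-0.14 to 0.62) and -0.31 (-0.69 to 0.060). The median over the 10 genes was -0.081 in untreated and -1.44 in FGF8 cells, beside -0.016 and -0.040 over all genes tested. The FGF8 library of day 0 enters both this change and the difference with FGF8 at day 0, so a high value there gives a positive value in one and a negative value in the other.

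**Figure D4:**
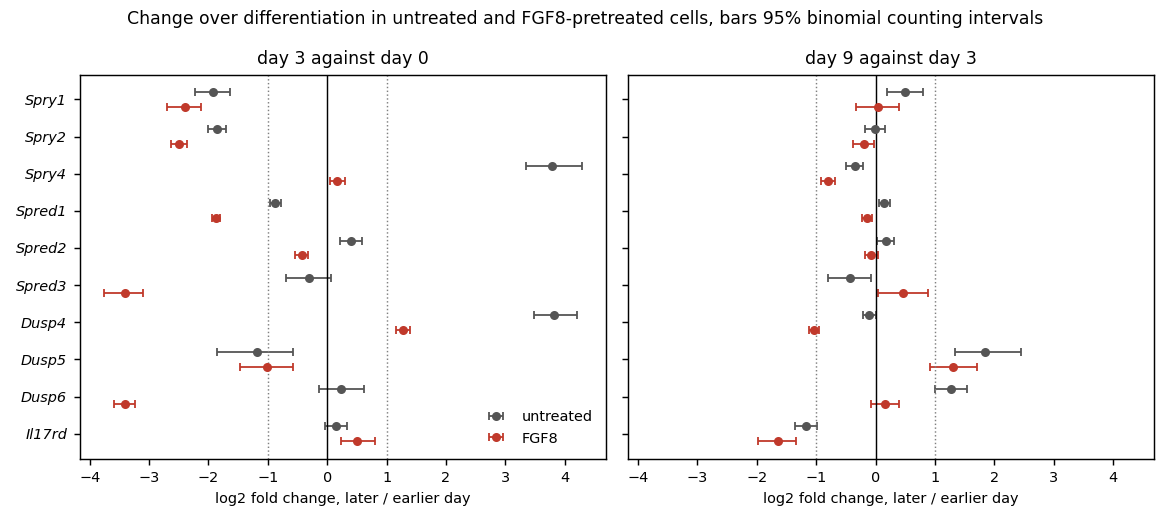
Log2 fold change from day 0 to day 3 (left) and from day 3 to day 9 (right) on the x axis for the 10 genes (rows), in untreated (grey) and FGF8 cells (red). Points are differences between 2 single libraries, bars are 95% binomial counting intervals and dotted lines mark 2-fold. From day 0 to day 3 Spry4 and Dusp4 lie at 3.78 and 3.82 in untreated cells, and Dusp6 and Spred3 lie at -3.41 and -3.40 in FGF8 cells.

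From day 3 to day 9 fewer of the inhibitors passed 2-fold, 3 in each treatment. In untreated cells Dusp5 (3.59-fold) and Dusp6 (2.40-fold) were at least 2-fold higher and Il17rd 2.24-fold lower, where 8.77% and 4.42% of 13153 genes passed these limits. In FGF8 cells Dusp5 was 2.46-fold higher, and Il17rd (3.12-fold) and Dusp4 (2.05-fold) were lower, where 8.16% and 5.40% of 12869 genes passed. For Dusp6 the change was 1.27 (1.00 to 1.55) in untreated cells and 0.16 (-0.079 to 0.39) in FGF8 cells, and the difference between them was not tested.

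A change with day shared by both treatments was tested in the same edgeR fit. Spry1, Spry2 and Spred1 fell from day 0 to day 3, with log2 fold changes of -2.12 (SE 0.314), -2.13 (SE 0.256) and -1.36 (SE 0.341), each lower in 2 of 2 treatments. Their adjusted p-values were 0.00826, 0.00549 and 0.0291 (edgeR, Benjamini-Hochberg), where 19.8% of all genes were called lower and 26.2% higher, the latter with none of the 10. From day 0 to day 9 the same 3 genes fell by 1.86, 2.25 and 1.37 on the log2 scale and Il17rd fell by 1.04, with adjusted p-values of 0.0085, 0.0036, 0.0246 and 0.0174 (edgeR, Benjamini-Hochberg), where 24.8% of genes were called lower and 29.2% higher, again with none of the 10 among the latter. Without day 3, Spred1 and Il17rd no longer passed (0.0512 and 0.0507, edgeR with Benjamini-Hochberg adjustment; 0.000903 to 0.0512 for Spred1 and 0.00259 to 0.399 for Il17rd over the fits). With 2 residual degrees of freedom, these p-values measure the spread between single libraries.

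The order of the 10 genes per kilobase of exon changed with FGF8 at day 0. In untreated preadipocytes Spred1 (430) and Spry2 (415) led, followed by Spry1 (128), Spred2 (94.2), Il17rd (52.3), Dusp6 (44.2), Dusp5 (39.1), Dusp4 (33.7), Spred3 (28.3) and Spry4 (9.12 normalized counts per kilobase). After FGF8 Spred1 (982) still led, followed by Dusp6 (667), Spry2 (469), Dusp4 (363), Spred2 (233), Spry4 (161), Spry1 (108), Spred3 (102), Dusp5 (45.9) and Il17rd (15.4). Dusp6 thus ranked 6 of the 10 without FGF8 and 2 of the 10 with it. Single libraries have no spread, so neighbours in these orders, such as Spred1 and Spry2 in untreated cells, cannot be set against one.

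Genes whose log2 levels followed those of a family member most closely over the 6 libraries were sought among the 11371 genes that averaged 100 or more normalized counts. For Spry4 these were Eif4g3 (Pearson r 0.990), Tcim (0.989) and Ermp1 (0.984), and for Spred1 they were AI593442 (0.996), Samd8 (0.995) and AI597479 (0.995). For Dusp6 they were H3f3b (0.986), Ptar1 (0.968) and Megf10 (0.966), and for Il17rd Tnfrsf1a (0.997), Egfr (0.994) and Crtc1 (0.994). Egfr, the receptor of epidermal growth factor and another source of ERK signaling, was at 7980, 8232 and 2953 normalized counts in untreated and at 1933, 3060 and 940.6 in FGF8 cells. Dusp6 had few genes of similar course, 13 with r above 0.95, while Spred1 had 234, Il17rd 59 and Spry4 20. All points share the same 6 libraries and size factors, and a high r can rest on a single library far from the rest. AI593442 was at 13.2 normalized counts in untreated and 1461 in FGF8 cells at day 0 and at 0 on the later days. Eif4g3 was at 2465 in the untreated library of day 0 and between 3964 and 4642 in the others. Among the inhibitors themselves Spry1 and Spry2 (r = 0.97) and Spry4 and Dusp4 (0.97) were the most alike pairs, and Spry1 and Dusp4 (-0.75) the most opposed.

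The other genes of the pathway were described from lists of ligands, receptors, further inhibitors and ERK-induced genes. Of 18 ERK-induced genes, 6 were at least 2-fold higher with FGF8 at day 0 and 1 was lower, and the median over the list was 0.76 (log2). The ETS factors that carry FGF signals to the genome led them, Etv4 from 82.3 to 1763 normalized counts, Etv5 from 288 to 2518 and Etv1 from 70.5 to 451, with the cell cycle gene Ccnd1 from 849 to 4344. These 4 genes and the inhibitors Spry4, Dusp4 and Dusp6 were thus higher in FGF8 than in untreated cells at day 0. Dusp6 was highest in the FGF8 library of day 0 (2261), whereas Spry4 (1192) and Dusp4 (2530) were highest in that of day 3. On the later days more of the ERK-induced genes were lower, with 1 gene higher and 7 lower at day 3 and 0 higher and 6 lower of 17 at day 9. Egr1, an early response gene of ERK, was at 1109 in untreated and 248 in FGF8 cells on day 3 and at 1398 and 276 on day 9, when Egr2 was at 2376 and 363. Etv1 was the gene that was higher at day 3 (38.2 to 133).

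Of the receptors with enough counts, Fgfr2 was lower at day 0 (411 to 150) and none of 5 was 2-fold different at day 3 or day 9. Fgfr1, the receptor through which FGF8 is known to act on preadipocytes and named here after its values were seen, was at 8239 in untreated and 7921 in FGF8 cells at day 0. From day 0 to day 3 Klb, the co-receptor for endocrine FGFs, went from 1.47 to 1391 in untreated and from 1.28 to 2717 in FGF8 cells, on counts of at most 1 at day 0, and Fgfrl1, a receptor without a kinase domain, from 564 to 3933 and from 754 to 5912.

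Among 10 ligand genes, Fgf21 (2.94 to 81.9 normalized counts, log2 4.40 with an interval of 2.89 to 7.88 on 2 untreated counts) and Fgf1 (32.3 to 147) were higher with FGF8 at day 0, and Fgf10 (1196 to 285) and Fgf18 (85.2 to 23.0) were lower. At day 3 Fgf1 was higher (24.2 to 92.7), and Fgf7 was lower on both later days (1731 to 492, and 1429 to 414). Of 8 other dual-specificity phosphatases with enough counts at day 0, Dusp9, an ERK phosphatase close to Dusp6, was higher (11.8 to 175), Dusp10, which acts on p38 and JNK, was lower (686 to 168), and none was 2-fold different on the later days. Of 9 other inhibitors of receptors or Ras, Rasa1, a Ras GTPase-activating protein (2670 to 10253), and Lrig1, which lowers receptor levels (3066 to 8543), were higher at day 0. Errfi1, an inhibitor of the EGF receptor, was lower in FGF8 cells on both later days (6570 to 2890, and 2836 to 1379), and Spry3, a further Sprouty, was higher at day 3 (29.3 to 63.9). Proliferation genes, summed over 10 genes, were at 65561, 41449 and 28776 in untreated and 78871, 54602 and 36675 in FGF8 cells, with none of the 10 at least 2-fold different on any day.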

How the data were processed

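Total RNA of 6 samples, 1 for each combination of 2 treatments and 3 days, was sequenced by Novogene from a stranded mRNA library. The authors used TrimGalore for trimming, HISAT2 for alignment to GRCm39 and featureCounts for counting, and deposited raw counts per gene. Tool versions, annotation, strand setting and the treatment of multiply mapped reads are not given in the sources used here. No row lacked a gene name and no libraries were identical.

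Samples were grouped by their titles. DESeq2 (1.42.0) gave median-of-ratios size factors over the 6 libraries, by which counts were divided. Fold changes used log2(normalized count + 1), with a 95% Clopper-Pearson interval of counting error only, narrow for deep libraries and abundant genes. Genes were counted at 2-fold or more where the pair averaged 20 or more normalized counts. Shared effects were tested with edgeR (4.0.16, quasi-likelihood, TMM, filterByExpr, day plus treatment, 2 residual degrees of freedom, Benjamini-Hochberg, 0.05), whose steps were tested on simulated data. That simulation set an equal treatment effect on all 3 days, so it does not cover responses that differ between days. SE values were derived from its F statistic. Exon lengths and promoters came from GENCODE M39, matched for 23698 of 26264 symbols (90.2%). Nothing says that the libraries are separate cultures, so p-values measure only the spread between them.

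The members and gene lists were chosen with earlier results of these data known. From the lists, genes at 2-fold or more were named, at most the 4 with the largest change per list and comparison. The lists were FGF ligands, receptors, other phosphatases, other inhibitors, ERK-induced genes and markers of preadipocytes, brown adipocytes, macrophages, endothelium, muscle and proliferation. The summary of a list of cascade components is not reported here. Alternatives were other scalings, pseudocounts, filters and fold limits, DESeq2's test, other blocks, and leaving out each day. R was version 4.3.3 and Python version 3.11.15, with scipy 1.17.1.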

Additional observations from a re-analysis of the deposited data

Results flagged for a closer look

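For 5 of the 10 genes, the difference between 2 libraries had opposite signs in 2 comparisons of the same kind, each with a counting interval that did not include 0. The share of all genes that meet this rule was not counted. With 1 library per condition, the difference between such comparisons was not tested. Spry2 had a log2 fold change with FGF8 of 0.1749 at day 0, against -0.4715 at day 3 and -0.6641 at day 9. Spred1 was higher with FGF8 at day 0 (1.1901) and day 3 (0.185) and lower at day 9 (-0.1053), although the day 3 value was 0.078 with total counts. For Spred3 the values were 1.8409 at day 0 and -1.2521 at day 3, and for Dusp6 they were 3.9066 at day 0 and -0.848 at day 9.

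Changes over differentiation also had opposite signs in the 2 treatments for Spred genes. Spred2 was higher at day 3 than at day 0 in untreated cells (0.4008) and lower in FGF8 cells (-0.4322). From day 3 to day 9 Spred1 was higher in untreated cells (0.1449) and lower in FGF8 cells (-0.1454), although the untreated value was 0.0017 with total counts, whereas Spred3 was lower in untreated cells (-0.4362) and higher in FGF8 cells (0.4577). These comparisons share libraries with those of FGF8 on single days.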

How the results depend on the processing

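With 1 library per condition there is no replicate check, and counting intervals do not cover differences between cultures. No paired analysis was possible because each group has 1 library, whose replicate number comes only from the accession order. Over the counts of members, 123 alternative values kept within 1.5 times of the reported count and 20 did not. With a 4-fold limit, 3 members were higher with FGF8 at day 0 and 0 lower, beside 250 and 560 of all 12657 genes tested. At day 3, at day 9 and from day 0 to day 3 in untreated cells 0 members were lower, beside 268, 354 and 668 of all genes. At that limit 0 were higher from day 0 to day 3 in FGF8 cells, and 0 were higher and 0 lower from day 3 to day 9 in untreated and in FGF8 cells. With a 1.5-fold limit, 1 was higher at day 3 and 4 were lower at day 9, beside 2017 and 1881 of all genes. With a mean of at least 100, 1 was higher from day 3 to day 9 in untreated cells and 0 in FGF8 cells.

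For the FGF8 effect shared by the days, edgeR called 1 member and DESeq2 1. Without each day in turn edgeR called 0 to 2. The 2 came without day 0, where 2230 of 14367 genes passed. The 0 came without day 3 and without day 9, where 0 genes in all passed against 1510 and 1868 at an unadjusted p under 0.05. Without the day block it called 0 members and 0 genes, with 575 at an unadjusted p under 0.05. DESeq2 called 7 members from day 0 to day 3, beside 7235 of 14921 genes. Without day 3 edgeR called 2 from day 0 to day 9, beside 6331 of 14256 genes. Contrasts with day 0 cannot be computed without day 0.

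Scaling by total counts moved the median of all genes by -0.21 from day 0 to day 3 in FGF8 cells, by -0.14 from day 3 to day 9 in untreated cells and by -0.11 for FGF8 at day 3, and TMM moved it by 0.10 from day 0 to day 3 in untreated cells. With total counts Spry4 reversed from 0.17 to -0.036 from day 0 to day 3 in FGF8 cells, a change within that shift of all genes. Differences close to 0 also crossed it, with ranges of -0.0051 to 0.092 for Spry4 with FGF8 at day 9, and from day 3 to day 9 of -0.035 to 0.047 for Spry1 in FGF8 cells and -0.15 to 0.032 for Spry2 in untreated cells. Of the alternative values of single genes, 493 kept their call or moved by less than their counting interval, 12 moved by more, and 8 became and 6 ceased to be called. The cause was not tested.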
